A study of Mus musculus with 15 samples.

Results

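The genes described here are 9 components of the extrinsic apoptosis pathway, measured in the thymus of 2 strains of non-obese diabetic (NOD) mice after a T-cell antigen had been injected. They are the receptors Tnfrsf10b, Fas, Tnfrsf1a and Tnfrsf1b, the ligands Fasl and Tnfsf10, the adaptor Fadd, the protease Casp8 and its regulator Cflar. They were taken by gene symbol, and all 9 were found among the 19938 genes that the annotation of the Affymetrix Mouse Gene 1.0 ST array names. Total RNA of the whole thymus was hybridised from 15 female mice, 1 array each, aged 5 weeks and killed 2 h after an intravenous dose of 0.5 µg of peptide. Of the NOD.LCMV mice, 3 had received gp33 and 3 a control peptide that binds the same class I molecule, Db. Of the NOD.Ln82-LCMV mice, 5 had received gp33 and 4 the control peptide.

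The peptide gp33 is a fragment of the glycoprotein of lymphocytic choriomeningitis virus, and CD8 T cells recognise it on Db. The series title asks how NOD mice delete CD8 T cells in the thymus and names Nfkbid as a gene of the diabetes locus Idd7. What Ln82 and LCMV stand for in the strain names is not spelled out in the labels. They give no processing batch either, and a batch in which the strains were handled apart cannot be told apart from a strain difference. Levels are log2 values, array medians lay between 7.59 and 7.67, and precision is limited by the number of arrays. The pan-T-cell gene Cd3e averaged 12.95 in NOD.LCMV with gp33 and 13.00 with the control peptide, and 12.88 in NOD.Ln82-LCMV with gp33 and 12.92 with the control peptide. The 5 pan-T-cell markers measured did not move alike. In NOD.LCMV, Cd5 (12.95 with gp33, 12.35 with the control peptide) and Cd2 (12.34 and 12.23) averaged higher with gp33, and Cd3e, Cd3d and Cd3g lower. Foxn1, a regulator of thymic epithelium, averaged 8.38 with gp33 and 8.71 with the control peptide in NOD.LCMV, and 8.92 with gp33 and 8.73 with the control peptide in NOD.Ln82-LCMV. The 7 markers measured for this epithelium did not move alike. In NOD.LCMV, Epcam (9.03 with gp33, 8.70 with the control peptide) and Krt8 (12.13 and 12.03) averaged higher with gp33, and the others lower.

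Death receptors of the tumour necrosis factor (TNF) receptor family carry a death domain inside the cell. When Fas ligand binds Fas, or TRAIL binds its receptor, the adaptor FADD is recruited and brings in caspase-8, which is activated there and cleaves effector caspases. The regulator c-FLIP, the product of Cflar, is a catalytically inactive relative of caspase-8 that competes with it in this complex. The thymus is known for deleting developing T cells whose receptors bind self antigen strongly, and antigen given to receptor-transgenic mice has been used to study that deletion.

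The windows around the starts of 3 of the genes are shown because Fas and Tnfrsf1b were higher and Tnfrsf1a lower after gp33 in NOD.LCMV. Each holds 250 bases before the start and 50 after it, read along the gene, from RefSeq on GRCm38.p6. Fas lies on the plus strand at chr19:34290409-34290708, Tnfrsf1b on the minus strand at chr4:145246821-145247120, and Tnfrsf1a on the plus strand at chr6:125349473-125349772. Capitals mark matches to the motifs searched.
Fas: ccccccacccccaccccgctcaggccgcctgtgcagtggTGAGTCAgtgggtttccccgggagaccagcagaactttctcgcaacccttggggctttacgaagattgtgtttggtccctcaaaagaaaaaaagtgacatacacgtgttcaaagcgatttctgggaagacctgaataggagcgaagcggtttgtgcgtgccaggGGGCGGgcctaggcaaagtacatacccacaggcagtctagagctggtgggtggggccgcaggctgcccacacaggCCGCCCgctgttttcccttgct
Tnfrsf1b: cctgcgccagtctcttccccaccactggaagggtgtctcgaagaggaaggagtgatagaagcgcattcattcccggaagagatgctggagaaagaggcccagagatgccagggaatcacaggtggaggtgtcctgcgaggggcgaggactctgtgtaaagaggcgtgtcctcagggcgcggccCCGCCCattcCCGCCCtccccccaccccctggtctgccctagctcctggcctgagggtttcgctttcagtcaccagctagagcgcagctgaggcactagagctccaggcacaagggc
Tnfrsf1a: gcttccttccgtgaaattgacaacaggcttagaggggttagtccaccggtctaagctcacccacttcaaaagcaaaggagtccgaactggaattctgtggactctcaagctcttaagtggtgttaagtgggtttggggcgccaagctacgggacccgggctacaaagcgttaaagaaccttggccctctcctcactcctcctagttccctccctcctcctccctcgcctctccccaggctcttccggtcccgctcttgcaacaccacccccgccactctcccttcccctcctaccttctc

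The search covered both strands for the κB motif, AP-1 (TGANTCA), Egr (GCGNGGGCG), Nr4a (AAAGGTCA), the cyclic AMP element (TGACGTCA) and the GC box (GGGCGG). The RefSeq table held windows of 8 of the 9 genes, and Tnfrsf10b was the other. The Fas window held 1 AP-1 match, TGAGTCA, beginning at position -211 from the start, a motif found in 7.81% of 32851 mouse windows of this length. It also held GC boxes at -47 and, on the other strand, at 28. The Tnfrsf1b window held GC boxes at -67 and -57, both on the other strand, and the GC box is present in 35.7% of windows. No motif of the 6 matched the windows of Tnfrsf1a, Tnfsf10, Casp8 or Cflar. Fasl had 1 GC box at -34 and Fadd had GC boxes at -79 and -14. No window of the 8 matched the κB motif, which 8.46% of all windows hold. A match or its lack describes these letters only.

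After gp33, NOD.LCMV thymus had more transcript of the TRAIL receptor, of TNF receptor 2, of Fas and of Fas ligand, and less of TNF receptor 1, than thymus given the control peptide. Caspase-8 transcript was also lower, by a narrow call (limma adjusted p = 0.0461) that ended in 11 of 15 fits without a single array. In limma, with p-values adjusted over all genes and a threshold of 0.05, 4 of the 9 genes rose, where 7.29% of all genes rose, and 2 fell, where 12.5% of all genes fell. Among 9 genes, 2 falls are too few to be read as more than that share. The median log2 difference was 0.18 over the 9 genes and -0.033 over all genes.

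**Figure D1:**
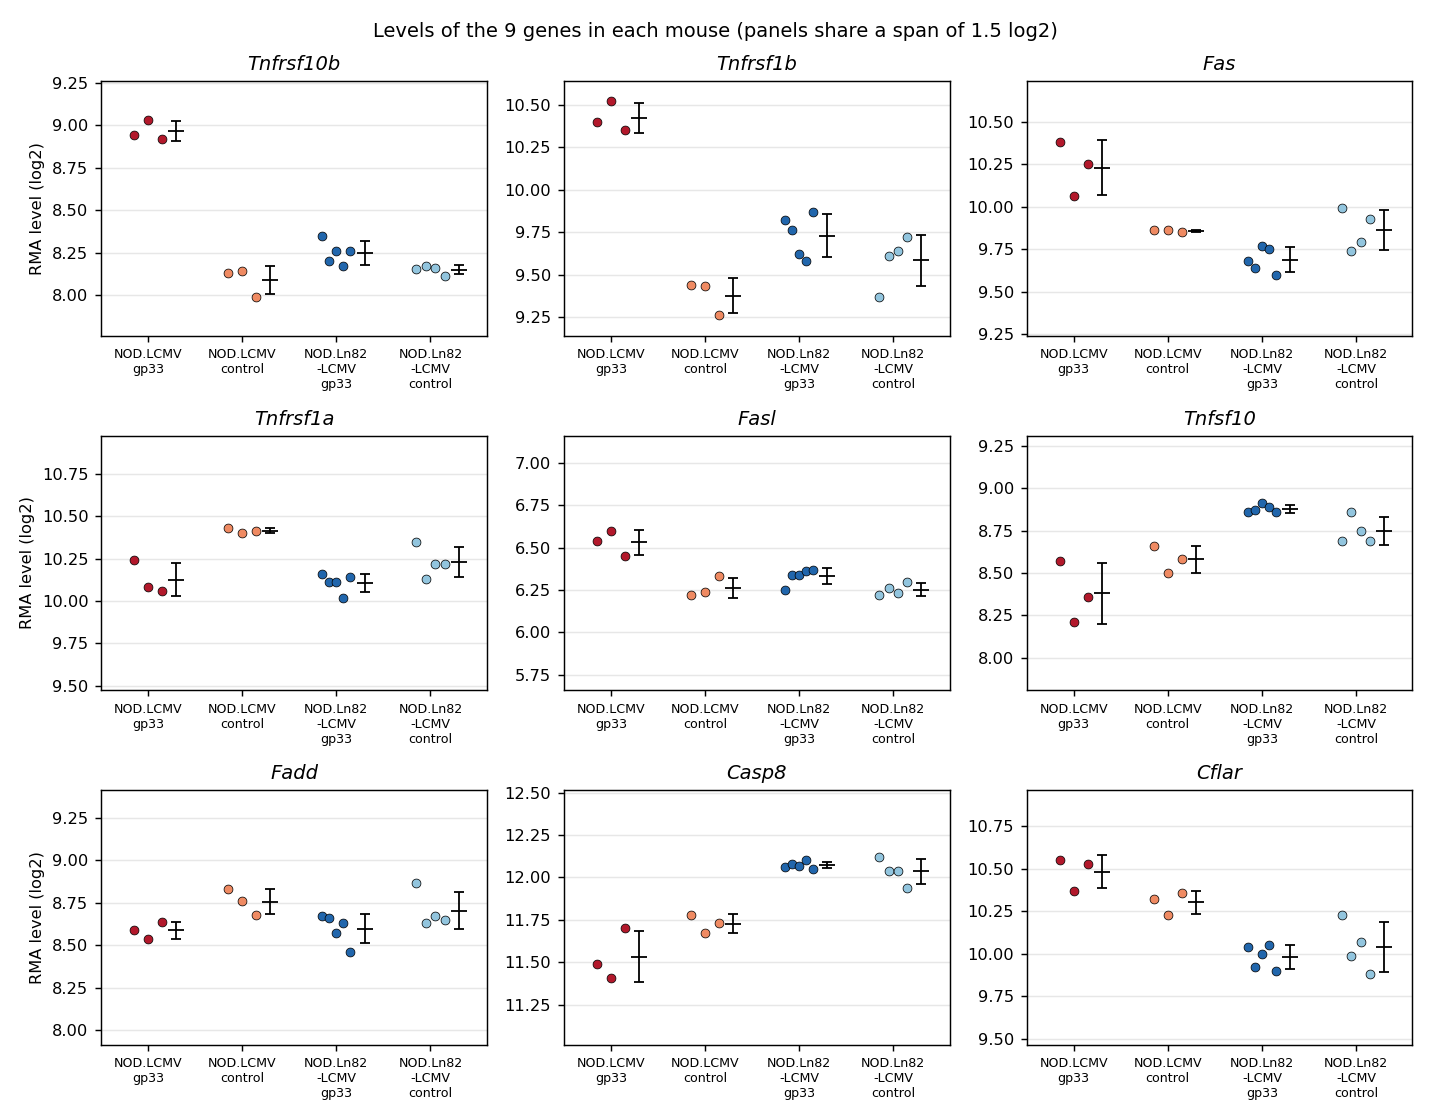
Log2 level of each of the 9 genes in every mouse (points), with the group mean and SD beside them, and the same span of 1.5 log2 units in every panel. In NOD.LCMV, gp33 mice lie above control mice for Tnfrsf10b (8.92 to 9.03 with gp33 against 7.99 to 8.14 with the control peptide), Tnfrsf1b (10.35 to 10.52 with gp33 against 9.26 to 9.44 with the control peptide) and Fas (10.06 to 10.38 with gp33 against 9.85 to 9.86 with the control peptide).

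Tnfrsf10b encodes the receptor through which TRAIL kills mouse cells. Its level was 8.94, 9.03 and 8.92 in NOD.LCMV mice given gp33, against 8.13, 8.14 and 7.99 in NOD.LCMV mice given the control peptide. The groups lay far apart, and it rose by 0.88 ± 0.05 log2 (SE), or 1.84-fold (95% interval 1.69 to 1.99, limma adjusted p = 1.95e-08). In NOD.Ln82-LCMV it was 8.35, 8.20, 8.26, 8.17 and 8.26 with gp33, against 8.15, 8.17, 8.16 and 8.11 with the control peptide. There the lowest gp33 mouse stood level with the highest control mouse, and the difference of 0.10 ± 0.04 log2 missed the threshold (adjusted p = 0.825 in limma; exact two-sided permutation p = 0.0397).

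Tnfrsf1b encodes TNF receptor 2, which has no death domain and signals through TRAF proteins. It had the largest difference of the 9 genes in NOD.LCMV, with levels of 10.40, 10.52 and 10.35 with gp33 against 9.44, 9.43 and 9.26 with the control peptide. No control mouse came near the gp33 mice. The rise of 1.05 ± 0.09 log2 was 2.07-fold, with an interval of 1.80 to 2.37 (limma adjusted p = 9.07e-07). In NOD.Ln82-LCMV the levels overlapped, at 9.82, 9.76, 9.62, 9.58 and 9.87 with gp33 against 9.37, 9.61, 9.64 and 9.72 with the control peptide (difference 0.14 ± 0.08 log2, limma adjusted p = 0.873).

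Fas encodes the receptor of Fas ligand. In NOD.LCMV its level was 10.38, 10.06 and 10.25 with gp33, against 9.86, 9.86 and 9.85 with the control peptide. The control mice were nearly identical and the gp33 mice spread above them. Fas rose by 0.37 ± 0.08 log2, or 1.30-fold with an interval of 1.15 to 1.45 (limma adjusted p = 0.00292). In NOD.Ln82-LCMV it was 9.68, 9.64, 9.77, 9.75 and 9.60 with gp33, against 9.99, 9.74, 9.79 and 9.93 with the control peptide. The direction there was the opposite one, with overlapping groups and a difference of -0.17 ± 0.06 log2 that missed the threshold (adjusted p = 0.741 in limma; exact two-sided permutation p = 0.0397).

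Tnfrsf1a encodes TNF receptor 1, the TNF receptor that carries a death domain. Its level in NOD.LCMV was 10.24, 10.08 and 10.06 with gp33, against 10.43, 10.40 and 10.41 with the control peptide. Every gp33 mouse lay below every control mouse, and the gene fell by 0.29 on the log2 scale (SE 0.06), to 0.82 times the control level with an interval of 0.751 to 0.895 (limma adjusted p = 0.00276). In NOD.Ln82-LCMV it was 10.16, 10.11, 10.11, 10.02 and 10.14 with gp33, against 10.35, 10.13, 10.22 and 10.22 with the control peptide. These groups overlapped and their difference of -0.12 ± 0.05 log2 missed the threshold (adjusted p = 0.804 in limma; exact two-sided permutation p = 0.0317).

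Fasl encodes Fas ligand, which activated T cells and natural killer cells display. It was the dimmest of the 9 genes, with a mean of 6.34 over all arrays, which lies under 6.92, the limit below which the dimmest 33.3% of genes fall. Its level in NOD.LCMV was 6.54, 6.60 and 6.45 with gp33, against 6.22, 6.24 and 6.33 with the control peptide. The groups did not overlap, and the rise of 0.27 ± 0.05 log2 was 1.2-fold with an interval of 1.12 to 1.29 (limma adjusted p = 0.00118). The deposited values give no background level, and how much background narrowed this difference is unknown. In NOD.Ln82-LCMV the levels were 6.25, 6.34, 6.34, 6.36 and 6.37 with gp33, against 6.22, 6.26, 6.23 and 6.30 with the control peptide. All but 1 of the gp33 mice lay above the control mice, and the difference of 0.08 ± 0.04 log2 missed the threshold (adjusted p = 0.862 in limma; exact two-sided permutation p = 0.0476).

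Tnfsf10 encodes TRAIL, the ligand of Tnfrsf10b. In NOD.LCMV its level was 8.57, 8.21 and 8.36 with gp33, against 8.66, 8.50 and 8.58 with the control peptide. The groups overlapped through 1 gp33 mouse, and the difference of -0.20 ± 0.07 log2 missed the threshold (adjusted p = 0.0748 in limma). Without that mouse, replicate 1, the difference was -0.295 log2 and passed it (limma adjusted p = 0.00516). In NOD.Ln82-LCMV the levels were 8.86, 8.87, 8.91, 8.89 and 8.86 with gp33, against 8.69, 8.86, 8.75 and 8.69 with the control peptide. The gp33 mice were close together at the top of the range, and the difference of 0.13 ± 0.06 log2 missed the threshold (adjusted p = 0.836 in limma; exact two-sided permutation p = 0.0238).

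Fadd, the adaptor, had levels of 8.59, 8.54 and 8.64 in NOD.LCMV with gp33, against 8.83, 8.76 and 8.68 with the control peptide. The gp33 mice lay below the control mice, but the difference of -0.17 ± 0.07 log2 missed the threshold (adjusted p = 0.114 in limma). In NOD.Ln82-LCMV it was 8.67, 8.66, 8.57, 8.63 and 8.46 with gp33, against 8.87, 8.63, 8.67 and 8.65 with the control peptide, with overlap (difference -0.11 ± 0.06 log2, limma adjusted p = 0.88).

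Casp8, the initiator caspase of the death receptor complex, was the brightest of the 9 genes, and its mean of 11.89 exceeded that of 97.9% of genes on this array. Its level in NOD.LCMV was 11.49, 11.41 and 11.70 with gp33, against 11.78, 11.67 and 11.73 with the control peptide. The groups overlapped by 1 mouse, and the fall by 0.19 on the log2 scale (SE 0.06) passed the test narrowly (limma adjusted p = 0.0461). Leaving out single arrays ended that call in 11 of 15 cases, with adjusted p-values between 0.00294 and 0.219, and so did median centring (limma adjusted p = 0.19) and a fit of these 6 arrays alone (limma adjusted p = 0.137). In NOD.Ln82-LCMV the levels were 12.06, 12.08, 12.07, 12.10 and 12.05 with gp33, against 12.12, 12.04, 12.04 and 11.94 with the control peptide, with overlap (difference 0.04 ± 0.05 log2, limma adjusted p = 0.995).

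Cflar was measured by 3 probe sets, and the brightest represents it. In NOD.LCMV its level was 10.55, 10.37 and 10.53 with gp33, against 10.32, 10.23 and 10.36 with the control peptide. The gp33 mice lay above the control mice by a narrow gap, and the difference of 0.18 ± 0.08 log2 missed the threshold (adjusted p = 0.133 in limma). Both other probe sets gave smaller differences in NOD.LCMV, of 0.01 and 0.09 log2. In NOD.Ln82-LCMV the levels were 10.04, 9.92, 10.00, 10.05 and 9.90 with gp33, against 10.23, 9.99, 10.07 and 9.88 with the control peptide, with overlap (difference -0.06 ± 0.06 log2, limma adjusted p = 0.986).

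In NOD.LCMV, 3 mice against 3 allow no exact permutation p under 0.1, and that value was reached by the 7 genes whose groups did not overlap, namely Fas, Fasl, Tnfrsf10b, Tnfrsf1b and Cflar above, and Tnfrsf1a and Fadd below. Of all genes, 10.9% had every gp33 mouse above every control mouse and 22.0% every gp33 mouse below, so that 2 of 9 below is near the share over all genes. Tnfsf10 and Casp8 gave an exact p of 0.2. In NOD.Ln82-LCMV none of the 9 genes was called by limma, where 0.00502% of all genes were called, a single gene. At an unadjusted limma p under 0.05 there were 4 of the 9 genes and 1190 of all 19938. The groups overlapped for each of the 9 genes, where 0.667% of all genes had every gp33 mouse above and 0.848% every gp33 mouse below. Beside the exact p-values given above, which like these are not adjusted, Tnfrsf1b gave 0.167, Casp8 0.357, Cflar 0.492 and Fadd 0.19 in the same permutation test. The median difference there was 0.037 log2 over the 9 genes and 0 over all genes.

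Markers of several cell types differed after gp33 in NOD.LCMV, where 7.29% of all genes rose and 12.5% fell. Of 8 measured markers of immature thymocytes, 5 fell, and their summed log2 level was 13.91 to 14.55 with gp33 against 14.55 to 14.75 with the control peptide. Of 4 markers of mature thymocytes, 3 fell (11.07 to 11.44 with gp33 against 11.79 to 11.91 with the control peptide). Of 8 neutrophil markers, 4 rose (10.45 to 10.86 with gp33 against 10.02 to 10.12 with the control peptide). They were Csf3r (1.01 ± 0.07 log2), S100a9 (1.25 ± 0.18), S100a8 (0.80 ± 0.08) and Ly6g (0.38 ± 0.10). The other 4, Mpo (0.06 ± 0.18), Elane (0.09 ± 0.09), Camp (-0.07 ± 0.05) and Ltf (-0.08 ± 0.10), did not pass the test. Of 6 natural killer cell markers, 1 fell (8.13 to 8.27 with gp33 against 8.32 to 8.41 with the control peptide), which at 16.7% is near the share over all genes. Those 6 were dim, with means over all arrays from 5.03 (Klrb1c) to 6.56 (Klra8), under the limit of 6.92. Of 8 macrophage markers, 1 fell (12.67 to 12.77 with gp33 against 12.65 to 12.77 with the control peptide), which at 12.5% equals that share. In the other lists, falls were counted in 3 of 6 dendritic cell (50%), 2 of 7 thymic epithelium (28.6%), 2 of 5 endothelium (40%) and 1 of 5 fibroblast markers (20%). A rise was counted in 1 of 5 pan-T-cell markers (20%). None of 3 B-cell markers, 3 adipocyte markers or 1 red cell marker passed the test. In NOD.Ln82-LCMV no marker of these lists passed the test, and the neutrophil sum was 9.91 to 10.13 with gp33 against 9.75 to 9.99 with the control peptide. The part that these markers had in the differences of the 9 genes was not tested. In a whole organ, fewer cells of a type and less RNA per cell cannot be told apart.

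**Figure D2:**
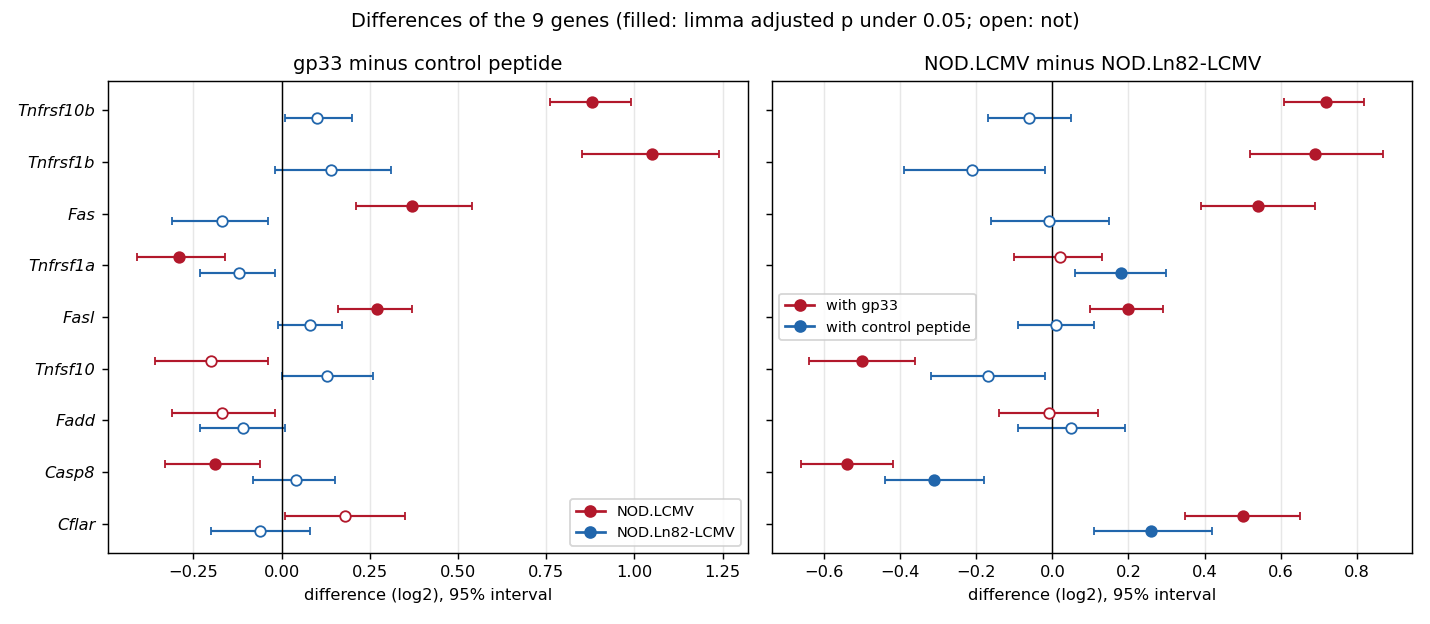
Difference in log2 level of each of the 9 genes with its 95% interval, for gp33 minus control peptide within each strain (left) and for NOD.LCMV minus NOD.Ln82-LCMV with each peptide (right). Filled points have a limma adjusted p under 0.05. On the left Tnfrsf10b (0.88) and Tnfrsf1b (1.05) stand apart in NOD.LCMV, and on the right Casp8 and Cflar pass the test with both peptides, Casp8 below 0 and Cflar above it.

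The response to gp33 differed between the strains for 3 receptors and 1 ligand. In limma's test of NOD.LCMV response minus NOD.Ln82-LCMV response, 3 of the 9 genes were higher, where 4.46% of all genes were, and 1 was lower, where 4.26% were. Tnfrsf1b differed by 0.90 ± 0.12 log2 (limma adjusted p = 0.000153) and Tnfrsf10b by 0.78 ± 0.07 (limma adjusted p = 3.65e-06). Fas, whose differences had opposite signs, gave 0.55 ± 0.10 log2 (limma adjusted p = 0.00276). Tnfsf10 gave -0.33 ± 0.10 log2 (limma adjusted p = 0.0444), a call that second quantile normalization (0.0595), median centring (0.121), a variance trend (0.0505) and array weights (0.0866) ended, as did 11 of 15 single arrays left out.

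For the other 5 genes the responses were not shown to differ. The difference between responses was 0.19 ± 0.06 log2 for Fasl (limma adjusted p = 0.0906), and it passed the test after second quantile normalization (0.023), median centring (0.0232) and array weights (0.0246). It was -0.23 ± 0.08 for Casp8 (limma adjusted p = 0.11), which passed after second quantile normalization (0.0441) and with array weights (0.0456). For Cflar it was 0.24 ± 0.10 (limma adjusted p = 0.18), for Tnfrsf1a -0.16 ± 0.08 (0.245) and for Fadd -0.06 ± 0.09 (0.824). So the fall of Tnfrsf1a in NOD.LCMV was not shown to be larger than its difference in NOD.Ln82-LCMV. Nfkbid, the gene in the series title, had a difference between responses of 1.71 ± 0.15 log2 on the same arrays (limma adjusted p = 2.16e-06).

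Between the strains after gp33, 7 of the 9 genes differed. NOD.LCMV was higher in 5 of them, where 10.2% of all genes were higher, and lower in 2, near the 16.8% of all genes that were lower. The median difference was 0.198 log2 over the 9 genes and -0.017 over all genes. Tnfrsf10b was 1.64-fold higher in NOD.LCMV (95% interval 1.53 to 1.76, limma adjusted p = 4.99e-08), and Tnfrsf1b 1.62-fold, with an interval of 1.43 to 1.83 (limma adjusted p = 1.39e-05). Fas was 1.46-fold higher (1.31 to 1.61, limma adjusted p = 3.09e-05), Cflar 1.42-fold (1.28 to 1.57, 6.16e-05) and Fasl 1.15-fold (1.07 to 1.22, 0.00326). The genes lower in NOD.LCMV were Casp8, at 0.688 times its level in NOD.Ln82-LCMV (0.632 to 0.749, limma adjusted p = 4.93e-06), and Tnfsf10, at 0.708 times (0.642 to 0.781, 4.15e-05). In each of the 7 no NOD.LCMV mouse overlapped any NOD.Ln82-LCMV mouse, which gave an exact permutation p of 0.0179, the lowest possible with these 8 mice. Of all genes, 10.6% had every NOD.LCMV mouse above and 16.3% every NOD.LCMV mouse below, so that 2 of 9 below is near the share over all genes. Tnfrsf1a (0.02 ± 0.05 log2, limma adjusted p = 0.877) and Fadd (-0.01 ± 0.06, 0.959) did not pass the test, with fold intervals of 0.936 to 1.1 and 0.908 to 1.09. This comparison shares arrays with both responses and is not independent of them.

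With the control peptide, 3 of the 9 genes differed between the strains. NOD.LCMV was higher in 2, where 4.77% of all genes were, and lower in 1, where 5.54% were. The median difference was -0.006 log2 over the 9 genes and 0.012 over all genes. Casp8 averaged 11.73 ± 0.06 in NOD.LCMV (SD, n = 3) and 12.04 ± 0.07 in NOD.Ln82-LCMV (SD, n = 4). Its difference of -0.31 ± 0.06 log2, a ratio of 0.808 with an interval of 0.739 to 0.883, passed the test (limma adjusted p = 0.0045), and no mice overlapped (exact permutation p = 0.0286, the smallest these 7 mice allow). Leaving out single arrays kept this call, with adjusted p-values between 0.00128 and 0.0285.

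Cflar was the converse with the control peptide, at 10.30 ± 0.07 in NOD.LCMV (SD, n = 3) and 10.04 ± 0.15 in NOD.Ln82-LCMV (SD, n = 4). The difference of 0.26 ± 0.07 log2 passed the test (limma adjusted p = 0.033), although 1 NOD.Ln82-LCMV mouse, at 10.23, stood level with the lowest NOD.LCMV mouse (exact permutation p = 0.0857). This call ended under median centring (0.0736), in a fit of these 7 arrays alone (0.0906) and in 5 of 15 fits without a single array. Tnfrsf1a averaged 10.41 ± 0.02 in NOD.LCMV (SD, n = 3) and 10.23 ± 0.09 in NOD.Ln82-LCMV (SD, n = 4). Its difference of 0.18 ± 0.06 log2 passed narrowly (limma adjusted p = 0.0495) and ended under median centring (0.0759), with these arrays alone (0.0826) and in 12 of 15 fits without a single array. Of the 6 genes that did not pass, Tnfsf10 had a difference of -0.17 ± 0.07 log2 and Tnfrsf1b of -0.21 ± 0.09 (limma adjusted p = 0.158 for each), and Fas, Fasl, Tnfrsf10b and Fadd lay between -0.06 and 0.05. Beside Casp8, the groups did not overlap for Tnfsf10, which was lower in every NOD.LCMV mouse (exact permutation p = 0.0286), and Tnfrsf1a, which was higher in every one (0.0571). Of all genes, 10.3% had every NOD.LCMV mouse above and 9.36% every NOD.LCMV mouse below with the control peptide, so that 1 of 9 above, Tnfrsf1a, is near the share over all genes.

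Casp8 and Cflar lie next to each other on chromosome 1 among the genes measured, and their strain differences had opposite signs with each peptide. The bright Cflar probe set gave 0.50 ± 0.07 log2 between the strains with gp33, and both other probe sets gave 0.355 (limma adjusted p = 0.00173) and 0.373 (0.000385). With the control peptide both others gave 0.286 (0.0257) and 0.153 (0.184). The number of the bright probe set (10497931) is far from those of both others (10346551 and 10346562) and of Casp8 (10346564). Where these probe sets align is not given in the sources used here, so whether the bright one lies at this place was not checked. Of the 4 measured genes before Cflar on the chromosome, Ndufb3 was lower in NOD.LCMV with gp33 (-0.48 ± 0.08 log2, limma adjusted p = 0.00021) and with the control peptide (-0.39 ± 0.08, 0.00587). Of the 4 after Casp8, Stradb was lower with gp33 (-0.34 ± 0.04 log2, 5.18e-06) and with the control peptide (-0.14 ± 0.04, 0.0304). The other 6 neighbours, Orc2, Fam126b, Flacc1, Trak2, C2cd6 and Tmem237, did not pass the test with either peptide. Fasl, also on chromosome 1, differed with gp33, as given above, and had a difference of 0.01 ± 0.05 log2 with the control peptide.

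**Figure D3:**
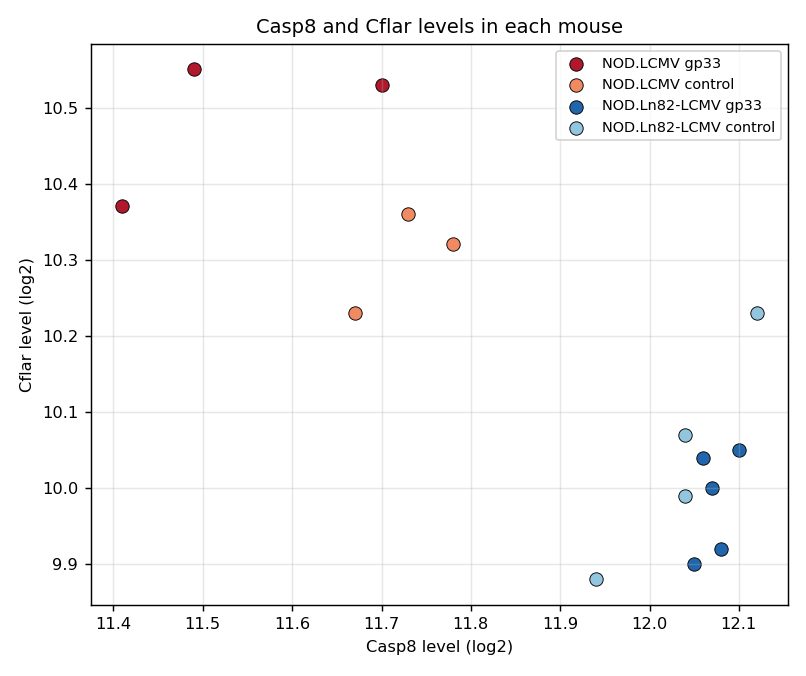
Log2 level of Cflar, read from its brightest probe set, whose place on the genome was not checked, against that of Casp8 in each of the 15 mice. NOD.LCMV mice lie at the upper left, with Casp8 between 11.41 and 11.78 and Cflar between 10.23 and 10.55, and NOD.Ln82-LCMV mice at the lower right, with Casp8 between 11.94 and 12.12 and Cflar between 9.88 and 10.23.

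Marker genes also differed between the strains. Of all genes, 10.2% were higher and 16.8% lower in NOD.LCMV with gp33, and 4.77% higher and 5.54% lower with the control peptide. All 6 natural killer cell markers had means under 6.92, as given above. With gp33, NOD.LCMV was lower in 4 of 6 natural killer cell markers (summed log2 level 8.13 to 8.27 in NOD.LCMV against 8.44 to 8.68 in NOD.Ln82-LCMV), in 5 of 8 macrophage markers (12.67 to 12.77 in NOD.LCMV against 12.82 to 13.18 in NOD.Ln82-LCMV) and in 3 of 3 B-cell markers (9.50 to 10.10 in NOD.LCMV against 10.76 to 11.44 in NOD.Ln82-LCMV). It was also lower in 5 of 8 immature thymocyte markers (13.91 to 14.55 in NOD.LCMV against 14.47 to 14.78 in NOD.Ln82-LCMV) and higher in 4 of 8 neutrophil markers (10.45 to 10.86 in NOD.LCMV against 9.91 to 10.13 in NOD.Ln82-LCMV). Of the other lists with gp33, it was lower in 4 of 7 thymic epithelium (13.59 to 13.66 in NOD.LCMV against 13.62 to 13.94 in NOD.Ln82-LCMV), 3 of 6 dendritic cell (10.37 to 10.55 in NOD.LCMV against 10.71 to 10.93 in NOD.Ln82-LCMV) and 2 of 4 mature thymocyte markers (11.07 to 11.44 in NOD.LCMV against 11.45 to 11.56 in NOD.Ln82-LCMV). It was lower too in 2 of 5 fibroblast and 1 of 1 red cell markers, and in 1 of 5 endothelium markers (20%, near the 16.8% of all genes). It was higher in 2 of 5 pan-T-cell markers, while none of 3 adipocyte markers passed. With the control peptide it was lower in 2 of 8 macrophage markers (12.65 to 12.77 in NOD.LCMV against 12.80 to 13.13 in NOD.Ln82-LCMV) and 1 of 3 B-cell markers (9.67 to 10.54 in NOD.LCMV against 10.25 to 11.18 in NOD.Ln82-LCMV), and higher in 2 of 8 neutrophil markers (10.02 to 10.12 in NOD.LCMV against 9.75 to 9.99 in NOD.Ln82-LCMV). Those neutrophil markers were Camp (0.16 ± 0.05 log2) and Ltf (0.42 ± 0.09), which did not pass between the strains with gp33. With the control peptide NOD.LCMV was also lower in 1 of 1 red cell markers (7.59 to 7.86 in NOD.LCMV against 8.30 to 8.63 in NOD.Ln82-LCMV). It was higher in 2 of 5 endothelium markers (11.68 to 11.84 in NOD.LCMV against 11.43 to 11.66 in NOD.Ln82-LCMV) and 1 of 4 mature thymocyte markers (11.79 to 11.91 in NOD.LCMV against 11.48 to 11.90 in NOD.Ln82-LCMV). No marker of the remaining lists passed. Their part in the strain differences of Casp8, Cflar, Tnfsf10 and the receptors was not tested.

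The order of the group means differed from gene to gene. For Tnfrsf10b, Tnfrsf1b and Fasl, NOD.LCMV with gp33 stood above the other 3 groups, each of which overlapped its neighbour in the order. For Fas the same group was highest, at 10.23 ± 0.16 (SD, n = 3), and NOD.Ln82-LCMV with gp33 was lowest, at 9.69 ± 0.07 (SD, n = 5), below all NOD.LCMV control mice. For Tnfsf10 and Casp8 both NOD.Ln82-LCMV groups lay above both NOD.LCMV groups, with overlap between the peptides within each strain. For Cflar, NOD.LCMV with gp33 stood above the others. For Tnfrsf1a the NOD.LCMV control group stood above the others, and for Fadd each group overlapped the next.

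The genes whose centred levels followed each called gene most closely over the 15 arrays were found by the root mean square difference in log2 level. For Tnfrsf10b these were Dhx33 (0.045), Smyd5 (0.056) and Wdr43 (0.062). For Tnfrsf1b they were Cobll1 (0.099), Slc7a5 (0.099) and Tgif1 (0.1), and for Fas they were Agfg1 (0.088), Dennd5a (0.094) and Nr6a1 (0.095). Fasl was most like Sgk1 (0.047), A1cf (0.055) and Slc3a2 (0.056), Tnfrsf1a like Dock8 (0.04), Ripor1 (0.045) and Kdm4b (0.045), and Casp8 like Hddc2 (0.051), Dynlrb1 (0.063) and Cdkn3 (0.064). The likeness is over arrays of 4 groups and describes these arrays.

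Among the other ligands of the TNF family, most rose after gp33 in NOD.LCMV. Of 13 measured, 10 rose (76.9%, against 7.29% of all genes) and none fell (against 12.5%), with a median of 0.59 log2 against -0.033 over all genes. Tnf, the ligand of both TNF receptors, averaged 11.48 ± 0.14 with gp33 and 9.10 ± 0.10 with the control peptide (SD, n = 3 each), a rise of 2.39 ± 0.15 log2 or 5.23-fold (limma adjusted p = 3.18e-08). Tnfsf14, which encodes LIGHT, rose by 1.98 ± 0.13 log2 and Lta, which encodes lymphotoxin-α, by 1.30 ± 0.11. Tnfsf9, the ligand of 4-1BB, rose by 0.91 ± 0.06 and Cd40lg, the CD40 ligand of helper T cells, by 0.81 ± 0.12. Tnfsf18, the GITR ligand, rose by 0.31 ± 0.05, and its mean over all arrays (5.63), like that of Tnfsf9 (6.16), lay under the dim limit of 6.92. So ligands outside the 9 genes had larger differences than Fasl (0.27) and Tnfsf10 (-0.20).

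Of 23 other receptors of the family, 9 rose (39.1%, against 7.29% of all genes) and 2 fell (8.7%, against 12.5%) in NOD.LCMV, with a median of 0.11 log2. Tnfrsf9, the costimulatory receptor 4-1BB, averaged 11.43 ± 0.16 with gp33 and 8.34 ± 0.16 with the control peptide (SD, n = 3 each) and rose by 3.09 ± 0.23 log2 (limma adjusted p = 1.07e-07). Cd40, a receptor of antigen-presenting cells, rose by 1.59 ± 0.12 log2, Tnfrsf18 (GITR) by 1.38 ± 0.11, Tnfrsf4 (OX40) by 0.76 ± 0.11 and Tnfrsf14 (HVEM, a receptor of LIGHT) by 0.50 ± 0.07. Tnfrsf26, a mouse member of the family, fell by 0.80 (SE 0.12).

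Of 26 adaptors and regulators of the receptor complexes, 5 rose (19.2%, against 7.29% of all genes) and 4 fell (15.4%, near the 12.5% of all genes), with a median of 0.04 log2. Those that rose included Tnfaip3 (1.74 ± 0.05 log2), which encodes A20, a brake on TNF receptor signalling, its binding partner Tnip1 (0.63 ± 0.06), the inhibitor of apoptosis Birc3 (1.33 ± 0.06) and the adaptor Traf1 (0.86 ± 0.09). Traf5, another TRAF adaptor, fell by 0.50 on the log2 scale (SE 0.06), and Sharpin, a subunit of the linear ubiquitin ligase, by 0.20 (SE 0.04). Of 7 other measured caspases, 1 rose and 3 fell (42.9%), with a median of -0.08 log2. Casp4, an inflammatory caspase, rose by 1.47 ± 0.12 log2, although its control mean of 6.89 lay in the dimmest range. The effector caspase Casp6 fell by 0.46 (SE 0.06), Casp9, the initiator caspase of the mitochondrial pathway, by 0.31 (SE 0.06), and Casp2 by 0.15 (SE 0.04). Of 17 genes acting downstream, 1 rose (5.88%) and 2 fell (11.8%), near the shares over all genes, with a median of -0.04 log2. They were Lmna (0.61 ± 0.07), a lamin that caspases cleave, Gsn (-0.39 ± 0.09), an actin-severing protein, and Dffb (-0.22 ± 0.06), the nuclease of apoptotic DNA fragmentation.

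**Figure D4:**
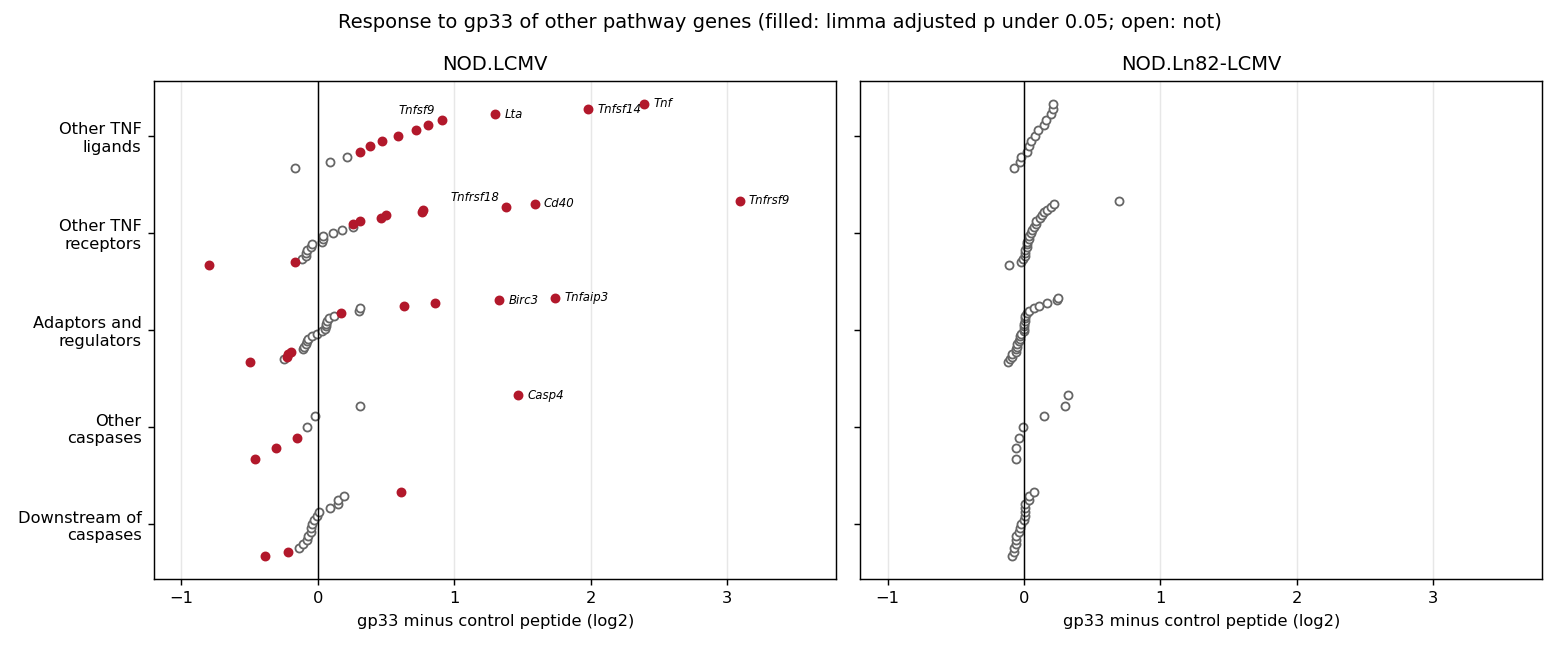
Difference in log2 level after gp33 of other genes of the pathway, by list, in NOD.LCMV (left) and NOD.Ln82-LCMV (right). Filled points have a limma adjusted p under 0.05; in NOD.LCMV 10 of 13 ligands are filled and above 0, up to Tnf at 2.39, and no point is filled in NOD.Ln82-LCMV.

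In NOD.Ln82-LCMV none of these 86 genes passed limma's test after gp33. An unadjusted limma p under 0.05 was found for 10 of them and for 1190 of all 19938 genes. The difference between responses passed the test for 7 of the 13 ligands, all higher (53.8%, against 4.46% of all genes), among them Tnfsf9 (0.93 ± 0.08 log2, limma adjusted p = 3.4e-06) and Tnf (2.22 ± 0.20, 3.45e-06). It passed for 7 of the 23 receptors, 6 higher (26.1%) and 1 lower (4.35%, near the 4.26% of all genes), with Cd40 at 1.39 ± 0.16 and Tnfrsf9 at 2.40 ± 0.29. It passed for 6 of the 26 adaptors and regulators, 4 higher (15.4%) and 2 lower (7.69%), with Tnfaip3 at 1.57 ± 0.07 and Birc3 at 1.09 ± 0.08. Of the 7 caspases Casp4 (1.16 ± 0.15) was higher and Casp6 (-0.42 ± 0.08) lower, and of the 17 downstream genes Lmna (0.54 ± 0.09) was higher (5.88%).

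Between the strains after gp33, 7 of 13 ligands were higher in NOD.LCMV (53.8%, against 10.2% of all genes) and none was lower (against 16.8%), with Tnf at 2.35 ± 0.14 log2 and Tnfsf9 at 0.97 ± 0.06. Of the 23 receptors, 8 were higher (34.8%) and 4 lower (17.4%, near that of all genes), with Tnfrsf25 at 1.09 ± 0.11 and Cd40 at 1.13 ± 0.11. Of the 26 adaptors and regulators, 8 were higher (30.8%) and 5 lower (19.2%, near that of all genes), with Tnfaip3 at 1.48 ± 0.05 and Birc3 at 0.97 ± 0.05. Of the 17 downstream genes, 1 was higher (5.88%), Lmna (0.53 ± 0.06), and 5 were lower (29.4%), among them Bak1 (-0.39 ± 0.04), which permeabilises mitochondria. Of the 7 caspases 3 were lower (42.9%), among them Casp6 (-0.65 ± 0.05), and Casp4 was higher (0.70 ± 0.10).

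With the control peptide, none of the 13 ligands passed the test between the strains, where 4.77% of all genes were higher in NOD.LCMV and 5.54% lower. Of the 23 receptors 1 was higher (4.35%) and 3 were lower (13.0%), of the 26 adaptors and regulators none was higher and 1 lower (3.85%), of the 7 caspases none was higher and 2 lower (28.6%), and of the 17 downstream genes 1 was higher (5.88%) and 2 lower (11.8%). Bak1 was lower in NOD.LCMV also here (-0.38 ± 0.05 log2, limma adjusted p = 0.000267), as was Bid, which caspase-8 cleaves to engage mitochondria (-0.34 ± 0.08, 0.0157). Casp6 was lower too (-0.22 ± 0.06, limma adjusted p = 0.0198). Casp4 was lower in NOD.LCMV with the control peptide (-0.46 ± 0.11, 0.013), the opposite sign to that with gp33. Tnfrsf18 (-0.41 ± 0.10, 0.0219) and Tnfrsf21 (-0.29 ± 0.08, 0.0298) were lower among the receptors. The others that passed were Tnfrsf9, lower (-0.71 ± 0.21 log2, limma adjusted p = 0.0433), Tnfrsf25, higher (0.38 ± 0.11, 0.0414), Acin1, a nuclear caspase substrate, higher (0.14 ± 0.04, 0.0435), and the adaptor Pea15a, lower (-0.20 ± 0.05, 0.0123).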

How the data were processed

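The authors deposited 1 table of log2 values of 35556 probe sets over 15 arrays, made with RMA, which corrects background, normalizes quantiles and summarises probes, and Affymetrix Expression Console 1.1 per the submitters' processing notes. No further normalization was applied. GEO's platform annotation gave 21789 probe sets 1 symbol, 1621 several and 12146 none, and the last 2 kinds were left out. A gene was read from its brightest probe set, which left 19938 genes. Chromosomes, gene order and promoter windows came from RefSeq on GRCm38.p6, and the build of the array's own annotation is not given in the sources used here.

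A mean per group was fitted to all arrays in limma 3.58.1 (R 4.3.3) with empirical Bayes variances and two-sided tests (11 degrees of freedom from the residuals, 14.9 in total). Benjamini-Hochberg adjustment ran over all genes, and a gene was called at an adjusted p under 0.05. Single genes were also compared by exact permutation tests over mice. The p-values measure the spread between mice. The fit was tested on simulated data for the NOD.LCMV response. It recovered 64 of 100 genes changed 1.25-fold and 97 of 100 changed 1.5-fold, with 10 false calls each time. A gene with a small change that missed the threshold is therefore not shown to be unchanged.

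A strain difference is the NOD.LCMV level minus that of NOD.Ln82-LCMV. A list's summed level is the log2 of its markers' summed linear values on an array. The 9 genes, the pathway lists and the marker lists (pan-T cells, immature and mature thymocytes, thymic epithelium, natural killer cells, neutrophils, macrophages, dendritic cells, B cells, endothelium, fibroblasts, adipocytes and red cells) were chosen with earlier results of these data known. All 9 genes are named in every comparison. Up to 6 called genes of a pathway list with the smallest adjusted p are named in the NOD.LCMV response and up to 2 in other comparisons, and for each called gene of the 9 the 3 most like it. Neighbours on chromosome 1, single markers, and Tnfrsf9, Tnfrsf25 and Acin1 with the control peptide were named after their values were seen. Alternatives tried were quantile normalization once more, median centring, leaving out genes under the dim limit, averaging a gene's probe sets, array weights, a trend of the variance on level, fits of the compared groups alone, a replicate block and leaving out each array; other Cflar probe sets were added after seeing the data.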

Additional observations from a re-analysis of the deposited data

Results flagged for a closer look

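In NOD.Ln82-LCMV with gp33, Fasl had 1 mouse below the rest, at 6.25 against 6.34 to 6.37 in the other 4. In NOD.Ln82-LCMV with the control peptide, Fadd had 1 mouse above the rest, at 8.87 against 8.63 to 8.67 in the other 3. These were 2 of 18 sets of a gene and a group tested for a stray value by Dixon's criterion, which chance meets in about 5% of sets. Only the NOD.Ln82-LCMV groups were tested, and the NOD.LCMV groups, with 3 mice each, were not.

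The response to gp33 in NOD.LCMV minus that in NOD.Ln82-LCMV passed limma's test for 4 of the 9 genes. It was higher for 3, where 4.46% of all genes were, and lower for 1, where 4.26% were. The values were 0.55 log2 for Fas, 0.78 for Tnfrsf10b, 0.90 for Tnfrsf1b and -0.33 for Tnfsf10. The call of Tnfsf10 ended in 11 of 15 fits without a single array and under several other alternatives.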

How the results depend on the processing

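The calls of Tnfrsf10b, Tnfrsf1b, Fas, Fasl and Tnfrsf1a in the NOD.LCMV response, of Tnfrsf10b, Tnfrsf1b and Fas in the difference between responses, of all 7 genes in the strain difference with gp33, and of Casp8 in that with the control peptide kept their direction and their side of the threshold under every alternative run, although Fasl was not among the genes tested without the dimmest ones. The gene count of the NOD.Ln82-LCMV response was 1, and it was 0 with median centring, the replicate block or only the groups compared, 4 with a variance trend or array weights, and 0 to 2 without single arrays. Array weights gave 3175 genes for the difference between responses, against 1740, and 4350 for the strain difference with the control peptide, against 2057. That last count was 1049 to 2721 without single arrays, lowest without NOD.LCMV control replicate 3 (1049), NOD.Ln82-LCMV control replicate 3 (1188) and NOD.LCMV control replicate 2 (1310). Of the 9 genes, 3 were called there, 1 with median centring or only the groups compared, 5 with array weights, and 1 to 4 without single arrays. The cause was not tested.

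Differences near 0 changed sign. With gp33, Fadd between strains was 0.062 after second quantile normalization, 0.044 with median centring and -0.042 to 0.017 without single arrays (0.01, 0.008, 0 and 0.017 among them), and Tnfrsf1a was -0.038 to 0.052. With the control peptide, Fas was 0.016 after second quantile normalization, 0.037 with array weights and -0.047 to 0.037 without single arrays, and Fasl was -0.012 after second quantile normalization and -0.023 to 0.033. The Cflar response in NOD.Ln82-LCMV was -0.115 to 0.002 without single arrays.

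Of the fits without 1 array, Casp8 in NOD.LCMV kept its call in those without NOD.Ln82-LCMV control replicates 1 or 4, NOD.Ln82-LCMV gp33 replicate 5 or NOD.LCMV gp33 replicate 3. Tnfsf10 in the difference between responses kept it in those without NOD.Ln82-LCMV control replicate 2, NOD.Ln82-LCMV gp33 replicate 5, NOD.LCMV control replicate 2 or NOD.LCMV gp33 replicate 1. Tnfrsf1a with the control peptide kept it in those without NOD.Ln82-LCMV control replicate 1, NOD.Ln82-LCMV gp33 replicate 4 or NOD.LCMV gp33 replicate 1. Cflar with the control peptide lost it without NOD.Ln82-LCMV control replicates 2, 3 or 4 or NOD.LCMV control replicates 1 or 3. Without NOD.LCMV gp33 replicate 3, Fasl (limma adjusted p = 0.0459) and Casp8 (0.0111) passed in the difference between responses, and without NOD.Ln82-LCMV control replicate 1, Tnfrsf1b passed with the control peptide (0.0282). Array weights, 0.282 to 2.758, also called Cflar (0.00924) and Fadd (0.0246) in the NOD.LCMV response, Cflar (0.0167) in the difference between responses, and Tnfsf10 (0.0248) and Tnfrsf1b (0.0301) with the control peptide.

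NOD.Ln82-LCMV mice share numbers across peptides, but same-numbered mice did not deviate together (correlations 0.12, 0.01, -0.05 and -0.23), so the numbers were not taken as pairs. With the replicate block, the NOD.LCMV response had 3953 genes, against 3943, the NOD.Ln82-LCMV response 0, and the difference between responses 1657. The block ended the calls of Casp8 in NOD.LCMV (limma adjusted p = 0.0874) and Tnfsf10 in the difference between responses (0.0888). Strain differences cannot be estimated with it. Of the 9 genes, Fasl lay under the dim limit.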
